A study of Mus musculus with 11 samples.

Results

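The ligands, receptors and inhibitory SMAD proteins of transforming growth factor beta (TGF-beta) and ALK1 signalling were followed in the cells of the cerebral vasculature in a mouse model of CADASIL, the inherited small vessel disease caused by NOTCH3 mutations. The members were 10 genes, chosen by symbol from 32287 features of the deposited count tables, and all 10 were listed. They were the ligands Tgfb1, Tgfb2 and Tgfb3, the receptors Tgfbr1, Tgfbr2 and Acvrl1, the co-receptors Tgfbr3 and Eng, and the inhibitory SMADs Smad6 and Smad7. Single-cell libraries had been made from cerebrovascular cells isolated with antibodies to CD31, a surface protein of endothelial cells (EC), with 1 library for each of 11 mice. The 6 R182C-TgN3 mice (CADASIL mice, line Tg350 in the labels) carried a human NOTCH3 transgene with the R182C change, and the 5 WT-TgN3 mice (control mice, line Tg100) carried the human transgene without it. All mice were untreated, and no source used here gave the promoter of the transgene. At 6 months there were 3 R182C-TgN3 mice (1 male and 2 females) and 3 WT-TgN3 mice (1 male and 2 females). At 9 months there were 3 R182C-TgN3 mice (1 male and 2 females) and 2 WT-TgN3 mice (1 of each sex). By their labels, the 9-month mice came from batch 1 (2 mice of each genotype) and batch 2 (1 R182C-TgN3 mouse), and the 6-month mice from batch 3 (2 of each genotype) and batch 4 (1 of each genotype). Age and batch cannot be told apart in this design. Mice are numbered within their genotype, R182C-TgN3 1 to 6 and WT-TgN3 1 to 5.

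TGF-beta ligands are secreted in a latent form and, once released, bind the type II receptor encoded by Tgfbr2, which recruits and phosphorylates a type I receptor. The type I receptor of most cells is ALK5, encoded by Tgfbr1, whereas EC also carry ALK1, encoded by Acvrl1, together with the co-receptor endoglin, encoded by Eng. The activated type I receptors phosphorylate SMAD transcription factors, and SMAD6 and SMAD7, which are induced by the same pathway, restrain it. The pathway is known for its part in vessel stability, since inherited loss of ENG or ACVRL1 causes arteriovenous malformations, and microglia depend on TGF-beta for their identity.

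Promoter sequences are shown for 3 genes that were higher in arterial than in venous EC in all 11 mice, and their windows were searched for 3 motifs known from SMAD binding. A RefSeq window of 260 bases (250 before and 10 after the start site, GRCm38.p6) was found for 6 of the 10 members, which had 7 windows. Each is written 5′ to 3′ on the strand of the gene, with capitals marking a motif found on either strand.
Smad6 (chr9:64022050-64022309, reverse strand): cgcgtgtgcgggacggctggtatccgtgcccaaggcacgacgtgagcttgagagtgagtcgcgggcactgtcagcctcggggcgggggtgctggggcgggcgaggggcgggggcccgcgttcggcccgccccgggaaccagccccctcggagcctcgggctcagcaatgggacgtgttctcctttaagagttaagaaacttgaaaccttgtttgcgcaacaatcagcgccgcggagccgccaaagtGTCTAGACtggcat
Eng (chr2:32646345-32646604, forward strand): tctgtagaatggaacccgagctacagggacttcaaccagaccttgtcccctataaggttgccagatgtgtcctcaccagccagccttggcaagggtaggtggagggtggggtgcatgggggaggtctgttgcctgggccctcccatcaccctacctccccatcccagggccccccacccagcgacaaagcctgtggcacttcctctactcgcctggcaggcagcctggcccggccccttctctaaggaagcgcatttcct
Tgfb2 (chr1:186705980-186706239, reverse strand): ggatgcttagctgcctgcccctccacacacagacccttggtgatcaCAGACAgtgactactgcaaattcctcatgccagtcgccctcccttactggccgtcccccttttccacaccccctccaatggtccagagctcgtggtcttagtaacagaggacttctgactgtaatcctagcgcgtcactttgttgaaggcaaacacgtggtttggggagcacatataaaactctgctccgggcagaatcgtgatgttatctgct
The Smad6 window held GTCTAGAC, the palindromic SMAD element, beginning 4 bases before the start site and running across it. These letters were found in 58 of 32851 promoter windows of this length (0.177%). The Tgfb2 window held CAGACA, the core of the CAGA box, on the strand of the gene, 204 bases before the start, and this shorter motif (or TGTCTG on the other strand) was in 18.1% of all windows. The Eng window had neither of these motifs, nor the GC-rich element GGCGCC, which was in 9.96% of windows. Of the other members with a window, Tgfbr1 had a GGCGCC before one of its start sites and a CAGA core before the other, and the windows of Tgfb1 and Tgfbr2 had none of the 3 motifs. A match in this window describes the letters only and was not tested for function.

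The libraries held 66658 barcodes with between 17550806 and 64215050 unique molecular identifiers (UMIs) each, and 58091 cells were kept with a median of 3488.5 to 7665 UMIs per cell across mice. Of 65086 distinct barcode sequences, 966 (1.48%) were present in more than 1 library. Clusters were named from marker genes that did not include the members, so each name stands for cells that are like that type (arterial-like and so on) rather than for a proven identity. They gave 35556 EC, among them 4955 arterial, 3659 arterial-capillary, 16078 capillary, 2005 capillary-venous, 2562 venous and 1515 fenestrated EC, as well as 4782 EC in subclusters that were left unnamed, 2117 smooth muscle cells (SMC), 764 pericytes, 14178 microglia and 326 perivascular macrophages. Several of the unnamed EC subclusters were led by genes of microglia, such as Tyrobp, C1qa and C1qb. They were 22 to 31.8% of the EC of R182C-TgN3 1, R182C-TgN3 4, WT-TgN3 2 and WT-TgN3 5 and 1.75 to 5.20% in the other mice, and are part of every value given for all EC but of no subtype. Without them the mean levels of the members in all EC were 94.1 to 103% of those given. A mouse entered a cell type with at least 20 cells, which left 10 mice for pericytes (without WT-TgN3 5, with 19 cells) and 9 for perivascular macrophages (without R182C-TgN3 4 and 5). Levels are given as CPM, the count of a gene per 1000000 UMIs, both summed over the cells of a type in 1 mouse. Because these are counts of transcript ends, a level is compared between cell types and mice and never between genes. Human NOTCH3 was at 253 ± 59.3 CPM (SD, n = 6) in SMC of R182C-TgN3 mice. In SMC of WT-TgN3 mice it was at 40.7 ± 25.1 CPM (SD, n = 5). Mouse Notch3 was present in SMC of both, at 614 ± 93.3 and 650 ± 42.1 CPM. In pericytes human NOTCH3 was at 850 ± 267 CPM (SD, n = 6) and 287 ± 88.7 CPM (SD, n = 4) respectively. The lines thus differed in transgene level as well as in the R182C change. The pericytes had endothelial markers at a median of 40.1% of their level in EC (8 markers, range 37.2 to 80.9%), compared with 2.00% in SMC, 1.13% in microglia and 6.56% in perivascular macrophages. Of the microglia, 1 cluster of 553 cells held 356 from WT-TgN3 2, which were 41.8% of the microglia of that mouse and compare with at most 12.0% in the others.

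The 3 ligand genes had different cellular sources, as the map of mean levels shows. Tgfb1 was highest in microglia, Tgfb2 in arterial and arterial-capillary EC and Tgfb3 in SMC. Tgfb1 (ENSMUSG00000002603; mm10 chromosome 7 from 25687002 to 25705077, forward strand) was at 312 ± 26.2 CPM (SD, n = 11) in microglia, with 281 CPM in the lowest and 358 CPM in the highest mouse. Perivascular macrophages followed with 181 ± 87.2 CPM (SD, n = 9) and fenestrated EC with 171 ± 25.9 CPM (SD, n = 11), and these did not differ beyond their spread, since macrophages were higher in 4 of 9 mice. Fenestrated EC line vessels without a blood-brain barrier, and in all 11 mice they held more Tgfb1 than the EC type next to them in the order, capillary-venous EC (87.4 ± 9.32 CPM). From there the levels ran down through arterial, venous and capillary EC and pericytes, with overlapping ranges between neighbours, to 53.0 ± 7.03 CPM in arterial-capillary EC and 27.6 ± 6.73 CPM in SMC, and the ranges of these last 2 types did not overlap.

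**Figure D1:**
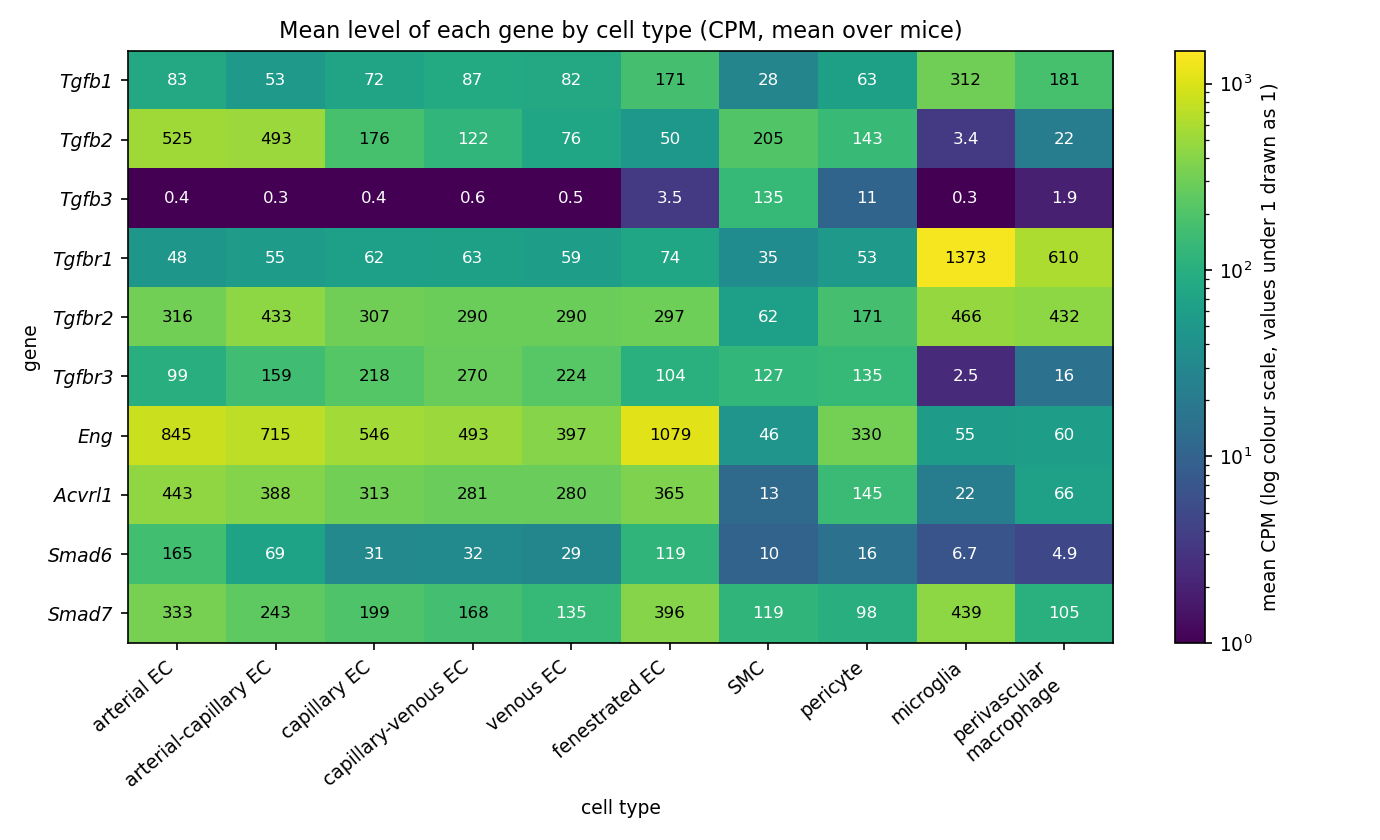
Mean level (CPM over mice, colour on a log scale, value printed in each cell) of the 10 genes (rows) in 10 cell types (columns); means are over 11 mice, 10 for pericytes and 9 for perivascular macrophages. Tgfbr1 stands out in microglia (1373 CPM), Tgfb3 in SMC (135 CPM) and Eng and Acvrl1 in the EC columns.

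Tgfb2 (ENSMUSG00000039239; chromosome 1 from 186622792 to 186705989, reverse strand), the ligand that needs a co-receptor for high-affinity binding, was at 525 ± 112 CPM (SD, n = 11) in arterial EC and 493 ± 113 CPM in arterial-capillary EC. The lowest, median and highest mice had 376, 527 and 717 CPM in arterial EC and 330, 505 and 631 CPM in arterial-capillary EC, so these types overlapped. SMC had 205 ± 41.5 CPM, below arterial-capillary EC in all 11 mice with no overlap, and did not differ from capillary EC (176 ± 26.4 CPM) beyond the spread. Venous EC had 75.9 ± 10.7 CPM and fenestrated EC 49.9 ± 21.2 CPM. Microglia were almost without Tgfb2, at 3.43 ± 1.28 CPM, or 1.54% of the level in EC, close to the 1.13% at which endothelial markers were seen there.

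Tgfb3 (ENSMUSG00000021253; chromosome 12 from 86056745 to 86079041, reverse strand) was nearly restricted to SMC, with 135 ± 32.3 CPM (SD, n = 11). The lowest SMC value was 63.2 CPM in R182C-TgN3 5 and the highest 181 CPM in R182C-TgN3 3. Pericytes, the other mural cell type, had 10.6 ± 6.97 CPM (SD, n = 10), from 37 UMIs in all. SMC were 12.7 times as high as pericytes by the ratio of means and were higher in 10 of 10 mice with no overlap. In all EC Tgfb3 was at 0.566 ± 0.134 CPM, and fenestrated EC, at 3.5 ± 2.56 CPM from 30 UMIs, had the most among their subtypes.

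**Figure D2:**
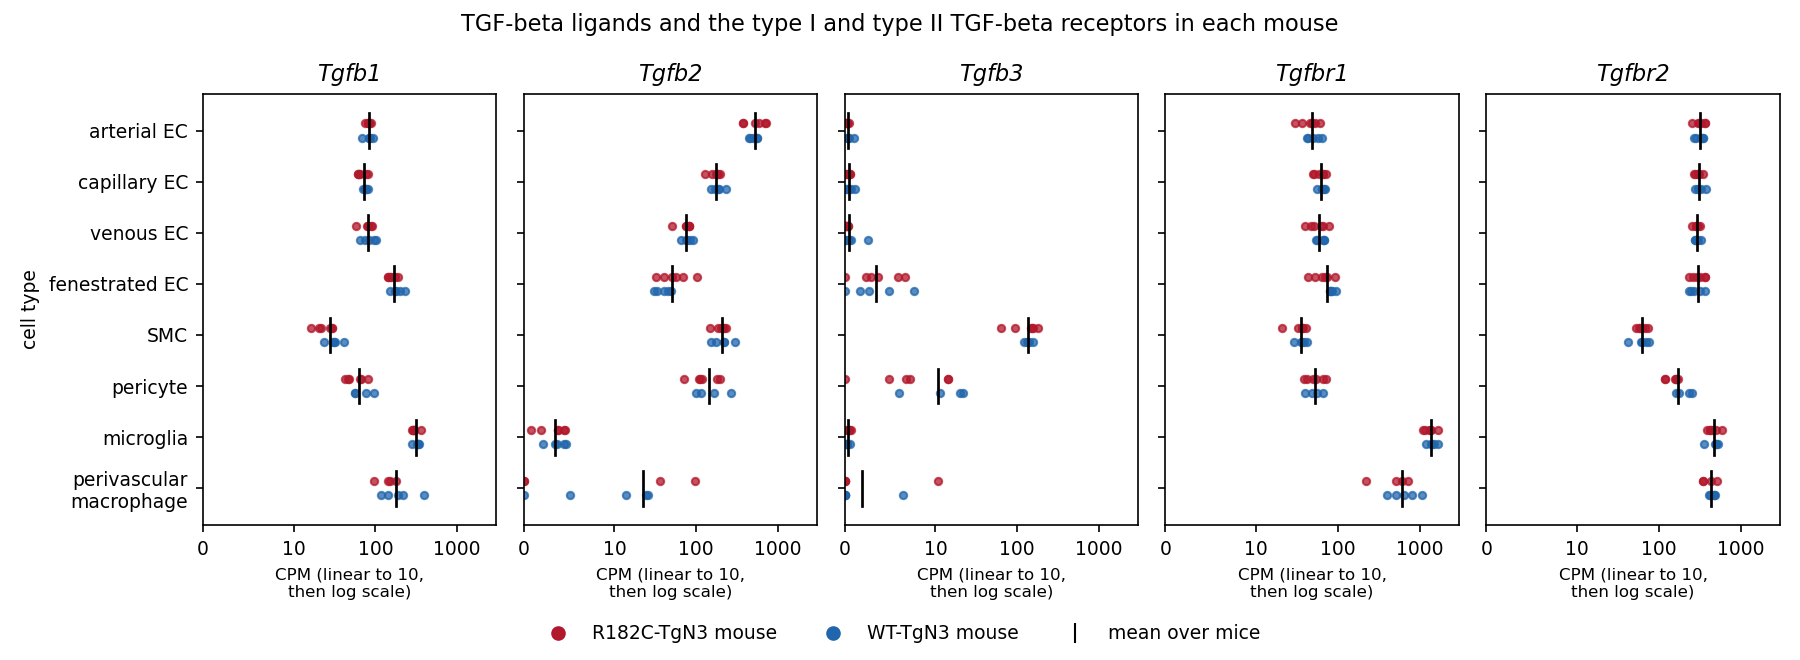
Levels (CPM on the x axis, linear to 10 and then logarithmic) of the 3 ligands and of the type I and type II TGF-beta receptors in 8 cell types (y axis), 1 point per mouse, red for R182C-TgN3 and blue for WT-TgN3, with a black line at the mean. Tgfb3 in SMC and Tgfbr1 in microglia lie apart from all other types, and red and blue points overlap in every row.

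The type I receptor gene Tgfbr1 (ENSMUSG00000007613; chromosome 4 from 47353222 to 47414931, forward strand) was by far highest in microglia, with 1373 ± 186 CPM (SD, n = 11) and a range of 1104 to 1685 CPM. Perivascular macrophages had 610 ± 242 CPM (SD, n = 9), below microglia in 9 of 9 mice with no overlap between the ranges, and these carried microglial markers at a median of 18.9% of the microglial level. Every EC subtype, pericytes and SMC lay far below, from 34.9 ± 5.90 CPM in SMC to 74.1 ± 16 CPM in fenestrated EC. Neighbours in this lower group overlapped throughout. The microglial level was 2269% of that in all EC, which was 60.5 ± 8.10 CPM.

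Tgfbr2 (ENSMUSG00000032440; chromosome 9 from 116084293 to 116175360, reverse strand), the type II receptor through which all TGF-beta ligands signal, was spread more evenly. Microglia (466 ± 67.6 CPM, n = 11), arterial-capillary EC (433 ± 41.1 CPM) and perivascular macrophages (432 ± 57.7 CPM, n = 9) overlapped. The other EC subtypes lay between 290 ± 19.3 CPM in venous EC and 316 ± 38.0 CPM in arterial EC, with no neighbour set apart from the next. Pericytes had 171 ± 42.9 CPM and SMC 62.0 ± 9.67 CPM, and SMC were lower than pericytes in 10 of 10 mice with no overlap. SMC were thus low for both signalling receptors, Tgfbr1 and Tgfbr2, among the 10 cell types.

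Betaglycan, encoded by Tgfbr3 (ENSMUSG00000029287; chromosome 5 from 107106570 to 107289629, reverse strand), presents TGF-beta2 to the signalling receptors. Among the types in the map of mean levels it was highest in capillary-venous EC at 270 ± 35.4 CPM (SD, n = 11). Venous EC followed at 224 ± 16.5 CPM and capillary EC at 218 ± 23.0 CPM. Fibroblasts, which are not in that map, had 237 ± 71.1 CPM (SD, n = 3). The step from capillary to arterial-capillary EC (159 ± 11.2 CPM) was seen in 11 of 11 mice with no overlap. Pericytes (135 ± 30.8 CPM, n = 10), SMC (127 ± 14 CPM), fenestrated EC (104 ± 22.9 CPM) and arterial EC (99.0 ± 12.7 CPM) followed, each overlapping with the next. Microglia had 2.49 ± 1.05 CPM, or 1.27% of the EC level, which is near the carry-over of endothelial markers.

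Endoglin, encoded by Eng (ENSMUSG00000026814; chromosome 2 from 32646595 to 32682669, forward strand), is the co-receptor of ALK1. It was highest in fenestrated EC, with 1079 ± 65.8 CPM (SD, n = 11; lowest 991, median 1062, highest 1232 CPM). Arterial EC had 845 ± 68.3 CPM (lowest 718, median 852, highest 927 CPM), below fenestrated EC in all 11 mice with no overlap. Arterial-capillary EC had 715 ± 69.8 CPM, capillary EC 546 ± 38.8 CPM, capillary-venous EC 493 ± 24.5 CPM and venous EC 397 ± 19.9 CPM. The ranges did not overlap between arterial-capillary and capillary EC, nor between capillary-venous and venous EC. Outside EC, pericytes had 330 ± 85.7 CPM (n = 10), or 54.8% of the EC level, beside endothelial markers at 40.1%, and how much of it came from endothelial RNA was not tested. Fibroblasts, which are not in the map of mean levels, had 356 ± 55.65 CPM (SD, n = 3). In SMC the level of Eng was 7.56% of that in EC, above the median of the endothelial markers there but inside their range (1.71 to 29.2%). In microglia Eng was at 9.18%, above all 8 of these markers (0.998 to 4.09%). In perivascular macrophages it was at 9.90% of the EC level with R182C-TgN3 6 and at 6.36% without this mouse, close to the 6.56% of the endothelial markers.

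Acvrl1 (ENSMUSG00000000530; chromosome 15 from 101128522 to 101145336, forward strand), which encodes ALK1, was likewise highest in EC. It was at 443 ± 32.9 CPM (SD, n = 11) in arterial EC, with 405, 435 and 508 CPM in the lowest, median and highest mouse. Arterial-capillary EC had 388 ± 25.6 CPM, fenestrated EC 365 ± 35.9 CPM, capillary EC 313 ± 17.4 CPM, and capillary-venous and venous EC 281 ± 18.2 and 280 ± 26.1 CPM, which did not differ beyond the spread. Pericytes had 145 ± 46.1 CPM (n = 10), or 43.6% of the EC level, and lay below venous EC in 10 of 10 mice with no overlap. The part of endothelial RNA in the pericyte level, beside endothelial markers at 40.1%, was not tested. Perivascular macrophages had 65.6 ± 24.2 CPM (n = 9), or 19.8% of the EC level, beside endothelial markers at 4.56 to 7.29%. Microglia had 21.6 ± 2.14 CPM (n = 11), or 6.51%, beside endothelial markers at 0.998 to 4.09%. Macrophages were above microglia in 9 of 9 mice with no overlap. In SMC, Acvrl1 was at 12.5 ± 11.7 CPM, and the highest mice were WT-TgN3 3 (35.8 CPM) and R182C-TgN3 6 (32.4 CPM). The same 2 mice, which made up batch 4, also had the highest summed level of the 8 endothelial markers in SMC, at 948 and 950 CPM compared with 188 to 674 CPM in the others.

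The inhibitory SMAD genes differed from each other in their range. Smad6 (ENSMUSG00000036867; chromosome 9 from 63953076 to 64022059, reverse strand), which mainly restrains signalling by BMP-type receptors, was at 165 ± 33.6 CPM (SD, n = 11) in arterial EC (lowest 105, median 161, highest 235 CPM) and 119 ± 19.0 CPM in fenestrated EC. Arterial-capillary EC had 68.7 ± 18.6 CPM, and capillary-venous, capillary and venous EC lay together at 32.1 ± 5.77, 31.0 ± 5.13 and 28.5 ± 3.86 CPM. The other types in the map of mean levels were lower. The lowest were microglia, at 6.69 ± 2.15 CPM, and perivascular macrophages, at 4.89 ± 7.13 CPM, where 5 UMIs were counted in all. Fibroblasts, which are not in that map, had 110 ± 38.7 CPM (SD, n = 3), from 127 UMIs in all.

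Smad7 (ENSMUSG00000025880; chromosome 18), which blocks both TGF-beta and BMP-type receptors, was present in every cell type. Microglia had 439 ± 43.2 CPM (SD, n = 11), fenestrated EC 396 ± 73.0 CPM and arterial EC 333 ± 59.4 CPM, with overlapping ranges. It then declined through arterial-capillary EC (243 ± 59.5 CPM), capillary EC (199 ± 42.2 CPM), capillary-venous EC (168 ± 43.3 CPM) and venous EC (135 ± 28.9 CPM). SMC had 119 ± 12.6 CPM, perivascular macrophages 105 ± 61.7 CPM (n = 9) and pericytes 98.1 ± 26.7 CPM (n = 10).

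Along the arterial to venous order of EC, 5 of the 10 genes were higher at the arterial end and 1 at the venous end in every mouse, and the other 4 were neither. Cell types were made by clustering the same cells, though without the members, so this is a description with no test. Arterial EC were above venous EC in 11 of 11 mice with no overlap for Tgfb2 (6.92 times by the ratio of means, 4.61 to 14.3 times within mice), Smad6 (5.79 times, 3.74 to 8.13), Smad7 (2.46 times, 1.66 to 3.42), Eng (2.13 times, 1.76 to 2.28) and Acvrl1 (1.58 times, 1.39 to 1.73). Tgfbr3 went the other way in 11 of 11 mice, with venous EC at 2.27 times the arterial level. Tgfb1 had an arterial to venous ratio of 1.01, unlike Tgfb2. Tgfbr2 had a ratio of 1.09 and Tgfbr1 one of 0.811, and all 3 had overlapping ranges. Tgfb3 was at or under 0.551 CPM on average in these subtypes. A fall at every one of the 4 steps was seen for Eng and Smad7 in 10 of 11 mice, for Tgfb2 in 8, for Acvrl1 in 7 and for Smad6 in 2, as Smad6 had reached its low level in capillary EC. Fenestrated EC did not sit at one end of this order. They were above arterial EC for Eng in 11 mice and for Smad7 in 10, between arterial and arterial-capillary EC for Smad6, and below venous EC for Tgfb2.

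**Figure D3:**
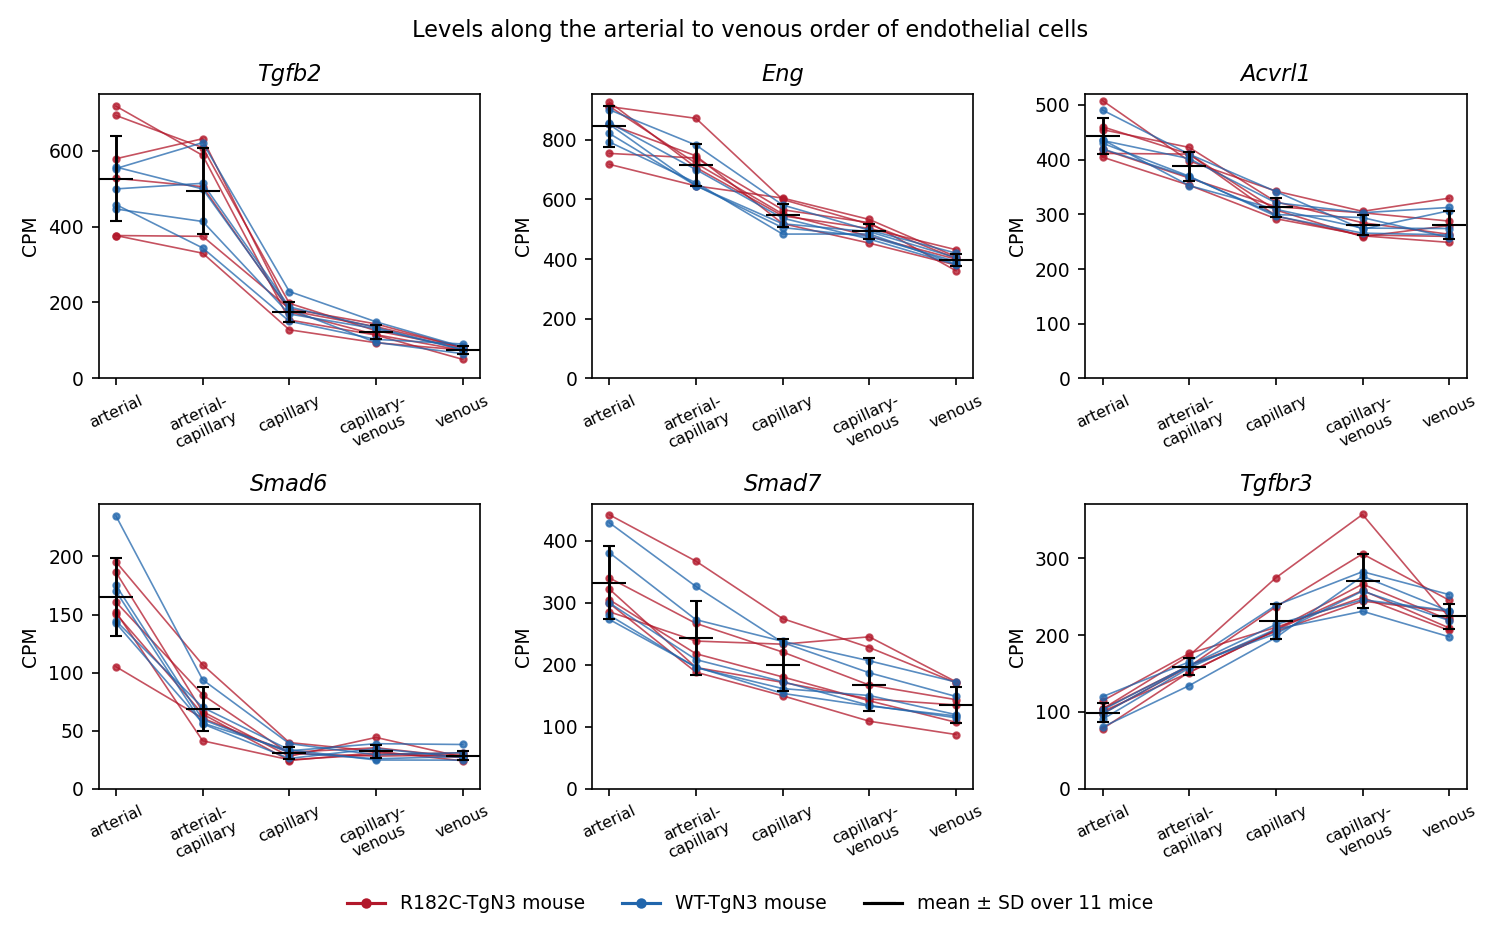
Levels (CPM, y axis from 0) of 6 genes in 5 EC subtypes from arterial to venous (x axis), 1 line per mouse, red for R182C-TgN3 and blue for WT-TgN3, with black bars for mean ± SD over 11 mice. Tgfb2, Eng, Acvrl1, Smad6 and Smad7 are higher in arterial than in venous EC in all 11 mice and Tgfbr3 is lower.

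The share of cells with at least 1 UMI was computed at a common depth of 2000 UMIs per cell, which left out 2791 EC, 2171 microglia and 18 SMC with fewer. Tgfbr1 was detected in 88.5% ± 2.92 (SD, n = 11) of microglia, whose median depth was 4921.5 UMIs, and in 10.7% of EC, with a median of 4780 UMIs. Eng was detected in 84.5% ± 1.73 of fenestrated EC and 76.9% ± 3.05 of arterial EC, compared with 10.4% of microglia. Acvrl1 was detected in 57.2% ± 2.89 of arterial EC and 1.76% ± 1.43 of SMC, whose median was 8072 UMIs. Tgfb2 was detected in 54.3% ± 5.91 of arterial EC and 0.536% of microglia. Smad6 was detected in 24.4% ± 4.12 of arterial and 5.64% of capillary EC, against 1.28% of microglia. Tgfb3 was detected in 20.7% ± 4.58 of SMC and 0.114% of EC. For 9 of the 10 genes the type with the highest share was also the one with the highest level. The exception was Smad7, with 52.2% of fenestrated EC and 50.0% of microglia.

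The genes with the most similar pattern were sought by the Pearson correlation of mean log2(CPM + 1) over 14 cell types, which include several EC subtypes from the same libraries, so the values are descriptive. Git1 was among the 3 most similar genes of both Eng (r = 0.98) and Acvrl1 (r = 0.98). Eng was also close to Pik3r3 and Zbtb46 (r = 0.97 each), and Acvrl1 to C130074G19Rik (r = 0.98) and Rasip1 (r = 0.97). For Tgfbr1 the most similar genes were Daglb, Slc29a3 and Fam102b (r = 0.98 to 0.99), all highest in microglia. For Tgfb3 they were Trabd2b, Ccdc3 and Tpm2 (r = 0.93 to 0.97), all highest in SMC, and Tpm2, a tropomyosin, was one of the SMC markers. For Tgfb2 they were Pfdn1, Pink1 and Tbx3 (r = 0.95 to 0.96), for Tgfb1 Rap1b, Ppp4c and Atg2a (r = 0.95 to 0.97) and for Tgfbr3 Rnf217, Pard3 and Pam (r = 0.95 to 0.97). Smad6 (Glis2, Kctd12b and Sar1a, r = 0.91), Tgfbr2 (Gm26510, Zfp277 and Git2, r = 0.90 to 0.91) and Smad7 (Numb, Rab2a and Vgll4, r = 0.79 to 0.84) had less similar partners.

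The wider pathway was read from a list of 66 further genes, from which those named here were chosen after their levels were seen. Of these, 3 of 12 ligands, 4 of 8 receptors, 4 of 6 SMADs, 9 of 15 inhibitors, 8 of 13 genes of latency and activation and 11 of 12 targets reached 50 CPM in at least 1 of the 10 cell types. Among the ligands, Bmp6 was highest in fenestrated EC at 411 ± 118 CPM (SD, n = 11), whereas Gdf2, which encodes the ALK1 ligand BMP9, had 0 UMIs in all 10 types and Bmp10 at most 0.285 CPM. Bmpr2, the type II receptor that pairs with ALK1, was highest in fenestrated EC at 937 ± 89.2 CPM. Of the proteins that store latent TGF-beta in the matrix, Ltbp4 was highest in arterial EC (1004 ± 114 CPM) and Ltbp1 in SMC (636 ± 79.6 CPM). Id1 and Id3, targets of ALK1, were highest in arterial EC at 975 ± 166 and 1020 ± 159 CPM, in the same subtype as Acvrl1. In microglia the transcriptional repressors Skil (863 ± 116 CPM) and Ski (499 ± 72.9 CPM), the feedback inhibitor Pmepa1 (610 ± 85.1 CPM) and Smad3 (189 ± 36.2 CPM) were at their highest, beside Tgfbr1, Tgfbr2 and Smad7. Htra1, the gene of a protease that is mutated in another inherited small vessel disease, was highest in arterial EC at 88.2 ± 19.5 CPM.

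The genotypes were compared to ask whether the pathway differed between CADASIL and control mice. Each genotype was a transgene line of its own, so mutation, line and NOTCH3 level cannot be told apart in these tests. No test of a member passed the threshold. UMI sums per mouse were tested with edgeR's quasi-likelihood test in 9 cell types, with Benjamini-Hochberg adjustment over all genes tested in a type, and 0 of 78 tests of members passed an adjusted p of 0.05. Arterial-capillary and capillary-venous EC were not tested. The filter on low counts left Tgfb3 out of all types but all EC and SMC, Smad6 out of pericytes, and Tgfb2, Tgfbr3, Eng and Smad6 out of perivascular macrophages. DESeq2 also called 0, and 4 of the 78 had an unadjusted p under 0.05. Across all genes the background was as low, with percent called of 0 in 8 of the 9 cell types and 0.0112 in SMC, where the 1 called gene of 8915 was the NOTCH3 transgene (log2 fold change 2.50, standard error 0.27, edgeR adjusted p = 1.53e-04). The share of all genes with an unadjusted p under 0.05 ranged from 1.07 to 4.52% over the cell types, and that of the member tests was 5.13%. In all EC the median log2 fold change of the 10 members was 0.03 and that of all genes 0.004. Of the wider list, 0 of 333 tests passed, DESeq2 again called 0, and 16 had an unadjusted p under 0.05.

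The intervals show how large a difference these data leave room for. The fold changes come from TMM-normalised libraries, so that their sign can differ from that of the CPM means, as for Eng. In the type with its highest level, Tgfb2 in arterial EC had 376, 553 and 717 CPM in the lowest, median and highest of the 6 R182C-TgN3 mice. The 5 WT-TgN3 mice had 446, 458, 499, 553 and 557 CPM. The R182C-TgN3 values thus ran both below and above all those of the control mice, with a log2 fold change of 0.15 and a 95% interval from -0.19 to 0.49. For Tgfb1 in microglia the interval ran from -0.30 to 0.18 around -0.06, and for Tgfbr1 in microglia from -0.31 to 0.17 around -0.07. Eng in fenestrated EC was at 1073 ± 49.2 CPM (SD, n = 6) in R182C-TgN3 and 1086 ± 87.6 CPM (SD, n = 5) in WT-TgN3 mice, with a log2 fold change of 0.03 and an interval from -0.20 to 0.27. Acvrl1 in arterial EC was at 443 ± 39.3 and 442 ± 27.8 CPM, with an interval from -0.16 to 0.25. For Smad6 in arterial EC it ran from -0.42 to 0.22 and for Smad7 in microglia from -0.23 to 0.25. Tgfb3 in SMC had 63.2, 150 and 181 CPM in the lowest, median and highest R182C-TgN3 mouse, and 122, 133, 134, 138 and 158 CPM in the WT-TgN3 mice. The R182C-TgN3 range enclosed that of the controls, and the interval ran from -0.34 to 0.38. No bound of the intervals given so far lay further from 0 than the 0.49 of Tgfb2. For Tgfbr2 in microglia, at 460 ± 74.1 and 474 ± 66.6 CPM, the interval ran from -0.28 to 0.24, and for Tgfbr3 in venous EC from -0.19 to 0.20.

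The 4 member tests with an unadjusted p under 0.05 all had an adjusted p of 0.991 or more by edgeR. Tgfb2 in fenestrated EC was at 58.6 ± 25.5 CPM (SD, n = 6) in R182C-TgN3 and 39.4 ± 7.74 CPM (SD, n = 5) in WT-TgN3 mice, with R182C-TgN3 5 at 103 CPM (exact permutation test over 462 splits, p = 0.128, and p = 0.278 within batches). Tgfbr1 in fenestrated EC was at 65.3 ± 16.7 and 84.5 ± 6.34 CPM respectively, where the exact permutation test gave p = 0.0411, and p = 0.0556 within batches. Tgfbr2 in pericytes was at 149 ± 23.5 CPM (SD, n = 6) and 205 ± 45.6 CPM (SD, n = 4), with p = 0.0286 by the exact permutation test and p = 0.111 within batches. Smad7 in perivascular macrophages was at 140 ± 78.7 CPM (SD, n = 4) and 77.1 ± 28.1 CPM (SD, n = 5), with R182C-TgN3 3 alone at 257 CPM (exact permutation test over 126 splits, p = 0.0794). Within batches the exact permutation p was 0.50, over 12 splits of the 2 batches with both genotypes in this type. R182C-TgN3 3 and WT-TgN3 1 and 2 were not in that test, and 12 splits can give no p under 0.05. The groups overlapped in each of these 4 comparisons. The summed endothelial markers of pericytes were 6682 ± 1976 CPM in R182C-TgN3 and 7786 ± 1700 CPM in WT-TgN3 mice, with overlapping ranges, and their part in the Tgfbr2 values was not tested. Of 90 exact permutation tests of the members, those with p under 0.05 over all splits were Tgfbr1 in fenestrated EC, Tgfbr2 in pericytes and Tgfb3 in arterial EC, at 0.256 ± 0.146 CPM in R182C-TgN3 and 0.556 ± 0.303 CPM in WT-TgN3 mice (p = 0.0217, and p = 0.111 within batches). The within-batch tests used only batches with both genotypes, which left out R182C-TgN3 3. They had 72 splits where all 11 mice had enough cells, 36 in pericytes and 12 in macrophages, where no p under 0.05 was possible. Within batches the only p under 0.05 was that of Acvrl1 in SMC, at 10.4 ± 11.3 and 15.1 ± 12.9 CPM. Its exact permutation p was 0.0278, the lowest that the 72 splits allow, and 0.506 over all splits. After Benjamini-Hochberg adjustment over the 90, the lowest exact permutation p was 0.977 over all splits.

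**Figure D4:**
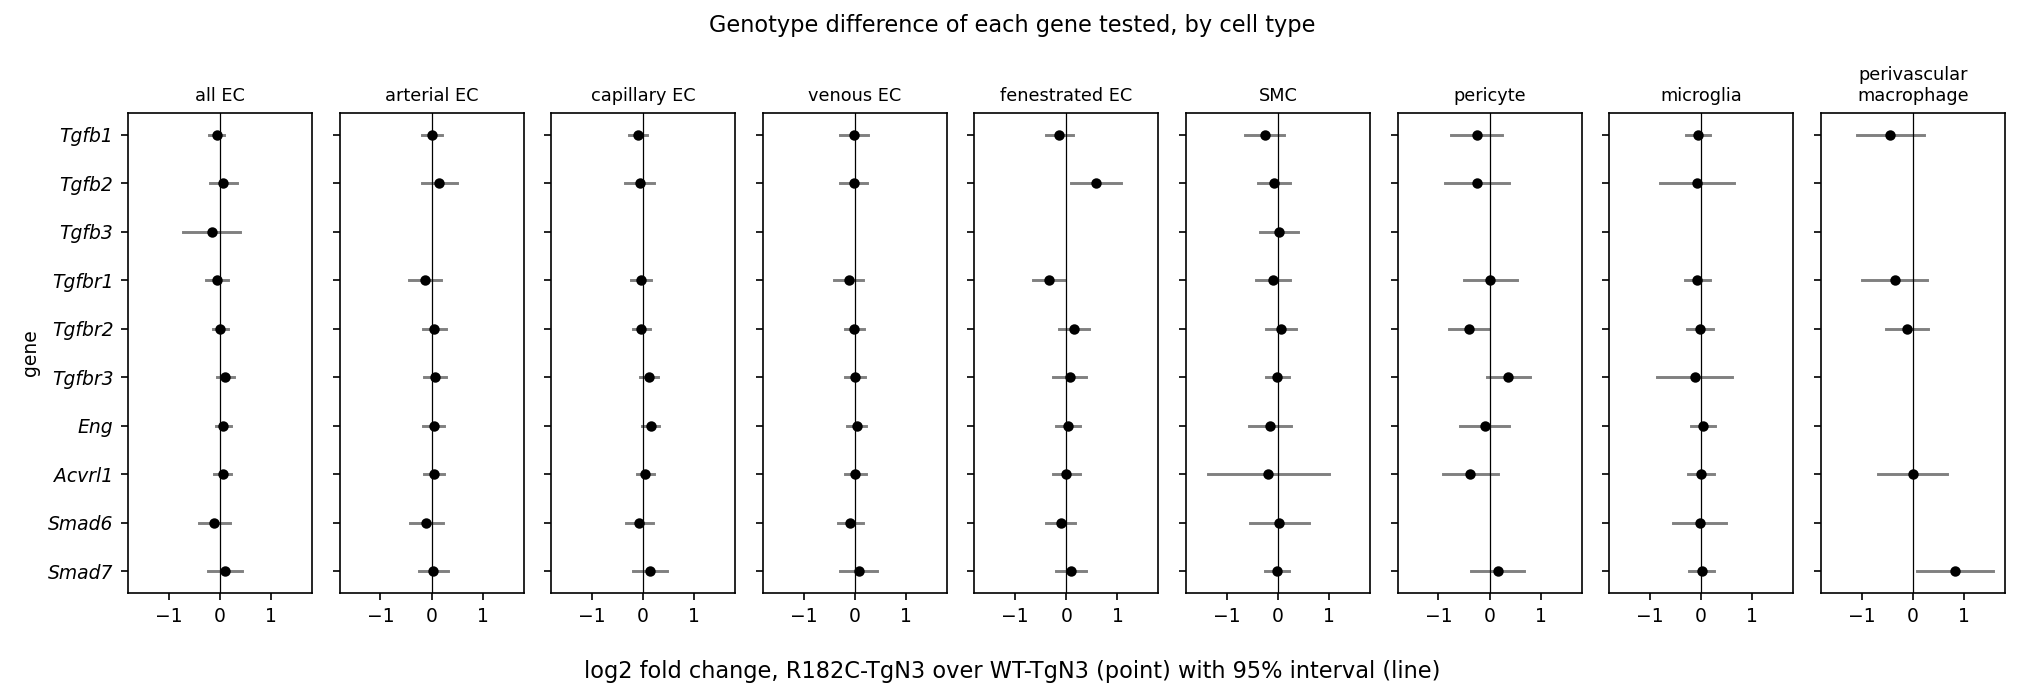
Log2 fold change of R182C-TgN3 over WT-TgN3 mice (x axis, points) with its 95% interval (lines) for each of the 10 genes (rows) that passed the filter on low counts in 9 cell types (panels). No gene passed an adjusted p of 0.05, and the widest interval is that of Acvrl1 in SMC (standard error 0.56).

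The ages were compared with genotype in the model, and Smad7 was higher in the 9-month mice in EC. Of 79 member tests 2 passed an adjusted p of 0.05, both for Smad7, in all EC and in capillary EC, and 12 had an unadjusted p under 0.05. These 12 were 15.2% of the member tests, and between 3.27 and 16.1% of all genes in a cell type had such a p. The percent called over all genes was 1.25 in all EC and 1.65 in capillary EC. It was 0.968 in arterial EC, 0.161 in venous EC, 0.0449 in fenestrated EC, 0.0749 in SMC, 0 in pericytes, 1.03 in microglia and 0.384 in perivascular macrophages, where no member passed. In capillary EC, Smad7 was at 150 (R182C-TgN3 4), 181 (R182C-TgN3 5), 172 (R182C-TgN3 6), 154 (WT-TgN3 1), 173 (WT-TgN3 2) and 162 CPM (WT-TgN3 3) at 6 months. At 9 months it was at 221 (R182C-TgN3 1), 275 (R182C-TgN3 2), 233 (R182C-TgN3 3), 236 (WT-TgN3 4) and 238 CPM (WT-TgN3 5). All 5 older mice, of both genotypes and from 2 batches, lay above all 6 younger ones. The log2 fold change was 0.53 (standard error 0.083, 95% interval from 0.35 to 0.70, edgeR adjusted p = 0.0164). In all EC, Smad7 was at 173 to 197 CPM at 6 months and 234 to 303 CPM at 9 months, with a log2 fold change of 0.47 (standard error 0.086, interval from 0.29 to 0.66, edgeR adjusted p = 0.0280). With the named EC subtypes only, an alternative chosen after seeing the data, it was 0.49 (edgeR adjusted p = 0.0230). Both adjusted p-values were near the threshold. In capillary EC the adjusted p was 0.0539 without R182C-TgN3 4 and 0.0542 without WT-TgN3 5. In all EC it lay between 0.0604 and 0.0794 when R182C-TgN3 1, 2, 4 or 5 or WT-TgN3 1, 3, 4 or 5 was left out.

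The other EC subtypes tested had Smad7 log2 fold changes of 0.51 in venous EC (edgeR adjusted p = 0.0941, DESeq2 adjusted p = 0.0166), 0.32 in arterial EC (edgeR adjusted p = 0.191) and 0.08 in fenestrated EC (95% interval from -0.23 to 0.39). In arterial-capillary EC, which were not tested, Smad7 was at 188 to 218 CPM at 6 months and 238 to 367 CPM at 9 months. Capillary-venous EC, also not tested, had 109 to 150 and 167 to 245 CPM. Outside EC the log2 fold changes were 0.14 in SMC, 0.11 in pericytes and 0.04 in microglia, with an interval in microglia from -0.21 to 0.28. Whether these differ from capillary EC was not tested. Each batch held mice of 1 age only, so no value within a batch could be had. A list of 8 genes induced by cell dissociation, among them Fos, Jun and Egr1, had a higher mean sum at 9 months in every cell type but arterial-capillary EC. In capillary EC it summed to 7224 ± 1572 CPM (SD, n = 6; 5018 to 9573) at 6 months and 11069 ± 3039 CPM (SD, n = 5; 7830 to 14431) at 9 months, and in arterial EC to 8822 ± 1355 and 12490 ± 2597 CPM. At 6 and 9 months the sum was 2062 ± 232 and 1970 ± 450 CPM in arterial-capillary EC. It was 16550 ± 3119 and 19761 ± 4421 CPM in microglia, and 16380 ± 1343 and 19339 ± 5753 CPM in SMC. The part of these genes in the Smad7 values was not tested.

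**Figure D5:**
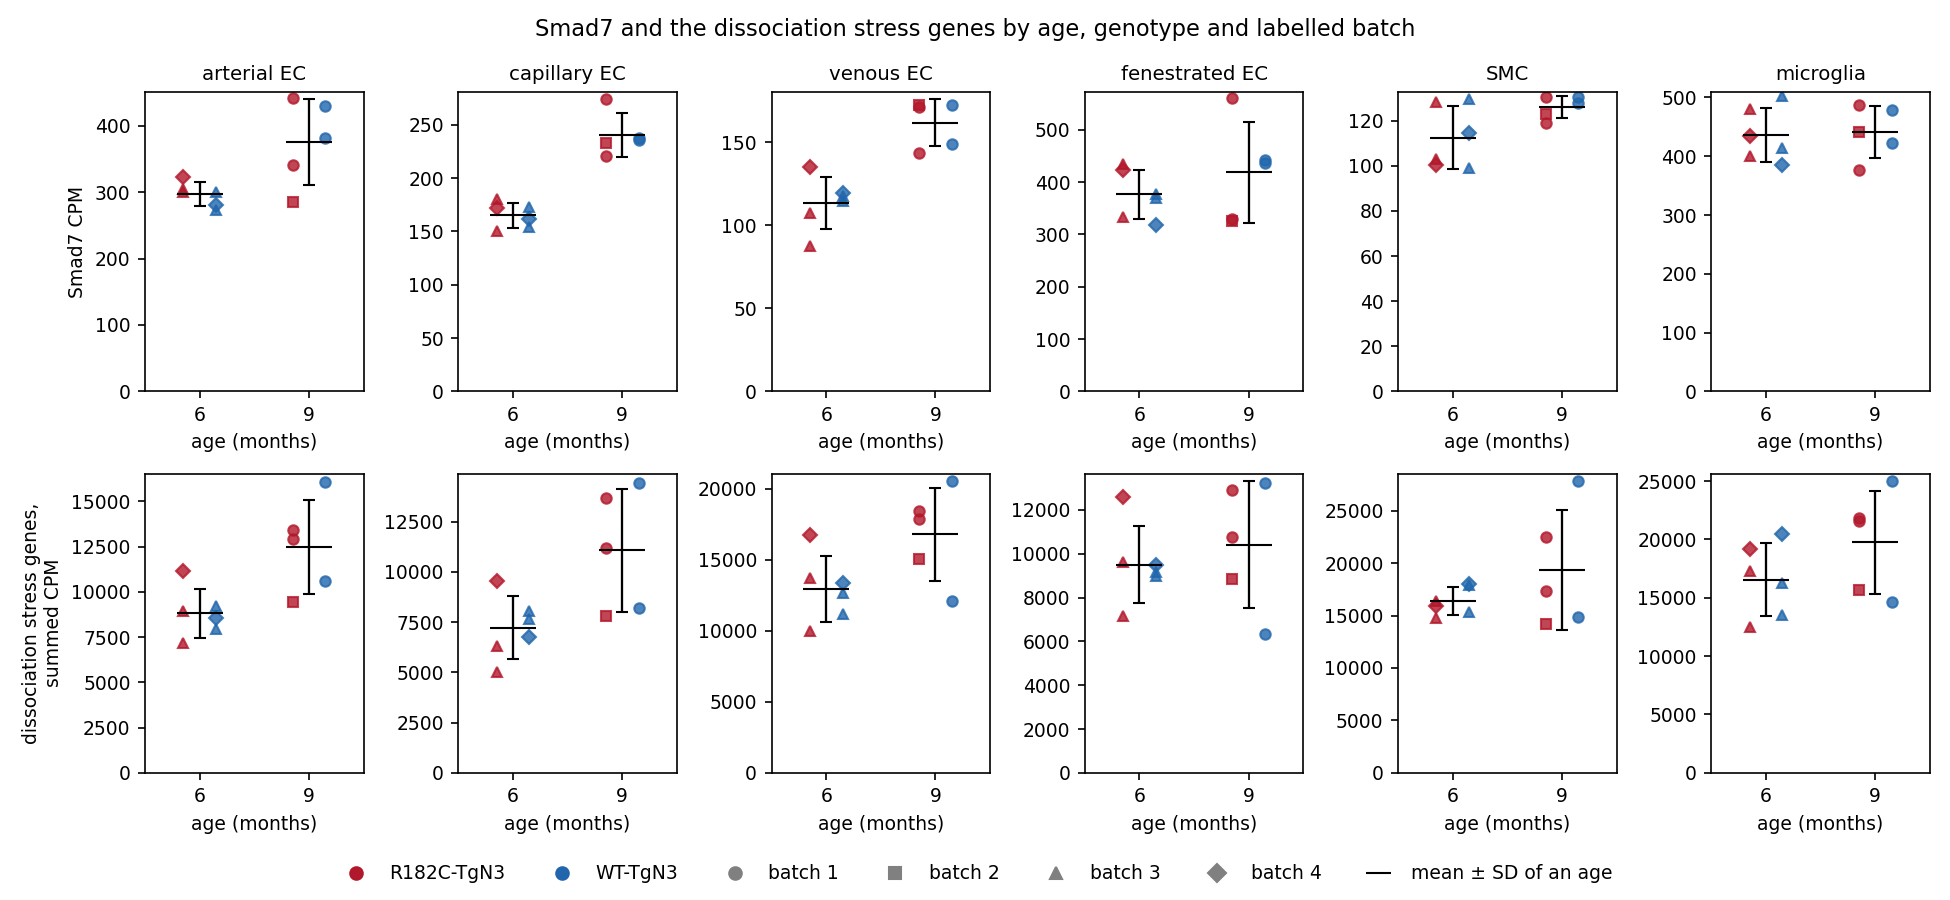
Smad7 level (upper row) and summed level of 8 dissociation stress genes (lower row), both in CPM from 0, at 6 and 9 months (x axis) in 6 cell types, 1 point per mouse with colour for genotype, shape for labelled batch and black bars for mean ± SD. Smad7 in capillary EC separates the ages (150 to 181 against 221 to 275 CPM), and the stress genes there have means of 7224 and 11069 CPM at 6 and 9 months, with overlapping ranges.

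Tgfb2 moved the other way on the arterial side. In arterial EC it was at 499, 553, 557, 579, 692 and 717 CPM in the 6-month mice and at 376, 376, 446, 458 and 527 CPM in the 9-month mice. Only R182C-TgN3 2, at 527 CPM, reached into the range of the younger mice. The log2 fold change was -0.48 (standard error 0.11, interval from -0.72 to -0.24), which missed the threshold by edgeR (adjusted p = 0.0562) and passed it by DESeq2 (adjusted p = 0.0034). In pericytes, where Tgfb2 was at 115 to 269 CPM in 6 younger and 70.5 to 110 CPM in 4 older mice without overlap, the log2 fold change was -0.82 (edgeR adjusted p = 0.999, percent called 0). Acvrl1 in SMC had a log2 fold change of -1.49 (edgeR adjusted p = 0.353), and the values of batch 4 given above, with their endothelial markers, lie on the younger side. Eng in perivascular macrophages had a log2 fold change of -2.17 (edgeR adjusted p = 0.0718), in which R182C-TgN3 6 had 230 CPM and the 8 other mice 14 to 93.4 CPM. The summed endothelial markers in these macrophages were also highest in R182C-TgN3 6, at 4858 CPM compared with 24.3 to 1486 CPM, and their part in the result was not tested. It passed the threshold without WT-TgN3 1 (adjusted p = 0.0159) or WT-TgN3 4 (adjusted p = 0.0207). Of the wider list 3 of 354 tests passed. Id2, an inhibitor of differentiation induced by SMADs, was higher at 9 months in microglia (log2 fold change 0.74, edgeR adjusted p = 0.0257), with overlapping values of 87.5 to 133 CPM at 6 months and 126 to 194 CPM at 9 months. Bmpr1b, a BMP type I receptor, was lower in microglia (log2 fold change -2.70, edgeR adjusted p = 0.0197) and capillary EC (log2 fold change -1.48, edgeR adjusted p = 0.0466), at levels no higher than 6.88 CPM in any mouse. These calls were also near the threshold. The adjusted p of Id2 was between 0.0521 and 0.0937 without R182C-TgN3 1, 2, 4 or 5 or any 1 of the WT-TgN3 mice. That of Bmpr1b was between 0.0519 and 0.0760 in microglia without R182C-TgN3 1 or 5 or WT-TgN3 3 or 5, and between 0.0885 and 0.126 in capillary EC without R182C-TgN3 1, 2, 4 or 5 or WT-TgN3 1, 3 or 5.

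The genotype effect at 9 months was compared with that at 6 months by an interaction term, and no test of a member passed. Of 80 tests 0 passed by edgeR, 4 had an unadjusted p under 0.05 and DESeq2 called 0. The percent called over all genes was 0 in 8 cell types and 2.15 in pericytes, where 162 of 7540 genes passed. In pericytes the members with the lowest p were Smad7 (interaction -1.36 on the log2 scale, edgeR adjusted p = 0.0756) and Acvrl1 (-1.16, edgeR adjusted p = 0.158), and without R182C-TgN3 4 both passed the threshold (edgeR adjusted p = 0.0311 and 0.0455). The only control mouse of 9 months with enough pericytes was WT-TgN3 4, with 36 cells. Smad7 in pericytes was at 147 CPM in this mouse and 66.1 to 133 CPM in the 9 others. Its pericytes also had the highest stress gene sum, at 10800 CPM compared with 2122 to 8628 CPM, and without it the interaction could not be fitted in pericytes.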

How the data were processed

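UMI counts per gene and barcode of 11 libraries, 1 per mouse, were deposited by the authors as filtered matrices. Per the labels they were made with Cell Ranger 7.0.0 and mm10, to which human NOTCH3 had been added, from 10x Genomics 3′ libraries of cells panned with CD31 antibodies. Gene positions were taken from the mm10 annotation and promoters from RefSeq (GRCm38.p6).

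Barcodes were filtered on a minimum of 500 detected genes and a maximum of 10% UMIs from mitochondrial genes, and the highest doublet scores were removed (0.8% per 1000 barcodes). Cells were clustered with leidenalg 0.10.2 (2000 variable genes, 30 components, 15 neighbours, resolution 1) without the members, the wider list, mitochondrial and sex genes, and named from markers. The minimum of 20% on the EC subtype score was chosen after seeing the clusters. UMIs were summed per mouse and cell type (at least 20 cells). Genotype, age and their interaction were tested with edgeR 4.0.16 (quasi-likelihood, TMM, filterByExpr) in R 4.3.3, adjusted over all genes tested, at a threshold of 0.05. Age was tested with genotype as a covariate. As in the study, ribosomal, mitochondrial, Gm and Rik features (11162 of 32287) were left out of the tests. The standard error is the log2 fold change over the root of F, and intervals are 95% intervals. The standard errors and p-values rest on the spread between mice. Single values were tested with a 2-sided exact permutation test over mice. Shares of cells were expected values at 2000 UMIs, and intervals for counting error alone were not formed. DESeq2 1.42.0, other filters, covariates, clusterings and leaving out each mouse were alternatives. The scripts were tested on simulated data.

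The named genes were the 10 members, the wider-list genes that passed a test, the 3 genes most similar to each member and NOTCH3. Other genes of the wider list were named for their levels, after these were seen. The members and lists were chosen with earlier results of these data known. Mice of 1 age and label number were numbered alike in both genotypes. Their deviations from the mean of their genotype correlated positively in all 5 pairs in microglia only (r = 0.151 to 0.464). Mice of a pair also shared age and batch, which these means do not remove, so r cannot tell a pairing by number from them. The numbers were not used as a block in the main tests.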

Additional observations from a re-analysis of the deposited data

Results flagged for a closer look

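In 146 groups of mice of 1 genotype, cell type and member gene with a mean of at least 50 CPM, 12 values lay far from the others of their group by Dixon's criterion, which chance alone meets in about 1 of 20 groups. For Tgfb1, R182C-TgN3 1 had 58.3 CPM in arterial-capillary EC (others 47.2 to 49.8). In microglia, Tgfb1 was at 358 CPM in R182C-TgN3 2 (others 283 to 299) and at 281 CPM in WT-TgN3 4 (others 327 to 340). Tgfb2 was at 50.3 CPM in venous EC of R182C-TgN3 5 (others 74.0 to 82.3). Tgfbr1 was at 43.0 CPM in arterial-capillary EC of WT-TgN3 1 (others 61.0 to 64.8). Tgfbr2 was at 358 CPM in microglia of WT-TgN3 5 (others 483 to 526). Tgfbr3 was at 134 CPM in arterial-capillary EC of WT-TgN3 2 (others 157 to 165) and at 162 CPM in fenestrated EC of R182C-TgN3 5 (others 86.8 to 103). Eng was at 230 CPM in perivascular macrophages of R182C-TgN3 6 (others 24.95 to 47.9), whose summed endothelial markers were also the highest of that cell type, at 4858 CPM. Acvrl1 was at 491 CPM in arterial EC of WT-TgN3 3 (others 420 to 437). Smad7 was at 442 CPM in arterial EC of R182C-TgN3 2 (others 286 to 341) and at 257 CPM in perivascular macrophages of R182C-TgN3 3 (others 95.8 to 109).

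In pericytes 3 genes of the wider list passed edgeR's interaction test of the genotype effect between 9 and 6 months, as did 162 of all 7540 genes tested (2.15%). The differences on the log2 scale were -3.52 for Klf10 (adjusted p = 0.0010), -1.93 for Id3 (adjusted p = 0.0159) and -1.77 for Pmepa1 (adjusted p = 0.0143). WT-TgN3 4, with 36 pericytes, was the only control mouse of 9 months, so the term rests on this mouse and could not be fitted without it. It also had the highest stress gene sum in pericytes, at 10800 CPM (others 2122 to 8628), and its part in the result was not tested. This mouse had the highest level of each, with 153 CPM of Klf10 (others 13.4 to 104), 697 CPM of Id3 (others 195 to 649) and 195 CPM of Pmepa1 (others 54.9 to 105). The adjusted p of Pmepa1 was 0.0554 without R182C-TgN3 3 and 0.0633 without R182C-TgN3 6, and that of Id3 was 0.0549 without WT-TgN3 1 and 0.0508 without WT-TgN3 2.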

How the results depend on the processing

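The count of 0 members that differed with genotype was kept under all 25 alternatives, with each mouse left out, with DESeq2 and with the replicate block. The replicate block, which pairs mice by age and label number, changed no call. For the wider list the genotype count was 2 (Id3 and Col4a1 in perivascular macrophages) without a filter on low counts, an alternative chosen after seeing the data. The age count of members was 4 with DESeq2 and 7 with no filter, and ranged from 0 (without R182C-TgN3 4 or WT-TgN3 5) to 3 when a mouse was left out. The interaction count ranged from 0 to 2 for members and from 0 (without WT-TgN3 4) to 5 for the wider list. With the named EC subtypes only, also chosen after seeing the data, no count changed. The cell type with the highest level was kept for 10 members, or for 9 with a minimum of 1000 genes or with a marker gate.

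Genotype differences that passed no test changed sign under some alternatives, and the cause was not tested. Tgfb3 in SMC was -0.093 with batch, -0.041 with age and -0.15 with the replicate block, and from -0.093 to 0.13 with a mouse left out. Tgfbr2 in microglia was 0.0079 with age, and from -0.092 to 0.046 with a mouse left out. Tgfbr3 in venous EC was -0.053 with 1000 genes and -0.016 at the doubled resolution, and from -0.048 to 0.038 with a mouse left out. Smad6 in arterial EC was 0.0038 with the replicate block, and from -0.17 to 0.029 with a mouse left out. The ranges with a mouse left out were -0.0014 to 0.064 for Eng in fenestrated EC, -0.014 to 0.076 for Acvrl1 in arterial EC and -0.035 to 0.088 for Smad7 in microglia. For Smad7 by age they were -0.044 to 0.17 in fenestrated EC, -0.37 (without WT-TgN3 4) to 0.39 in pericytes and -0.032 to 0.10 in microglia. Of the log2 fold changes recomputed for all named tests, 582 kept their direction and side of the threshold and 31 changed sign. A further 34 kept their direction but no longer passed the threshold, and 11 passed it only under the alternative. Depth was low for Tgfb3 outside mural cells and Smad6 in macrophages, and pericytes and macrophages had few cells.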
